A study of Mus musculus with 8 samples.

Results

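The genes of the mitochondrial ribosomal proteins were compared between mouse aortic smooth muscle cells given a moR-21 mimetic and cells given a scrambled control. They were taken as every gene symbol on the array made of Mrpl or Mrps and a number, a rule that used no measured value, which gave 72 of the 18138 symbols and 105 of the 25697 probes. Of these genes 46 belong to the large subunit and 26 to the small subunit of the mitochondrial ribosome. Primary cells were grown out from pieces of several mouse aortas, whose strain, age and sex the labels do not give, and both groups were transfected with small RNA at 5 nM with the same reagent and harvested after 48 h. The scrambled control was a small RNA of random sequence, and the mimetic was a synthetic copy of moR-21, a small RNA cut from the miR-21 precursor beside the mature miR-21. Each group had 3 samples. Control 1 and moR-21 3 were run again on a second array (their arrays are named A and B), so the 6 samples came to 8 arrays. Nothing in the labels says that the samples of a group were separate cultures, so each p-value measures the spread between these samples, which may be technical.

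Mitochondria make a small number of proteins of the respiratory chain and ATP synthase on ribosomes of their own. The ribosomal RNAs come from mitochondrial DNA, while all of the ribosomal proteins are encoded in the nucleus, made in the cytosol and imported. Some of these proteins have a counterpart in the bacterial ribosome and the rest occur in mitochondria alone. The small subunit decodes the mRNA, and the large subunit joins the amino acids and holds the tunnel through which the new protein leaves. An array measures the mRNA of these genes, not the protein, the assembled ribosome or its activity.

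Signals are given as log2 of the quantile-normalized intensity, and a difference is the mean of the moR-21 samples minus the mean of the control samples on that scale. For each gene the brightest of its detected probes was taken, which gave a value for 66 of the 72 genes (41 of the large and 25 of the small subunit), with 88 probes. The other genes, Mrpl19, Mrpl21, Mrpl32, Mrpl39, Mrpl45 and Mrps14, had no probe with a detection p-value under 0.01 on any array. Of the 66 genes, 65 had a detected probe on all 8 arrays. A gene was called changed at a fold-change over 1.3 and a limma adjusted p under 0.002, the cutoffs of the study. No background correction is stated for the deposited values, and without one the fold-changes of dim probes are understated.

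Array quality was similar in both groups, with a median intensity of 102 to 109 and 10285 to 10512 detected probes per array. Between 86 and 88 member probes were detected on each array. The number of samples limits the precision of each comparison, and in the whole array 680 of the 8727 genes with a detected probe were called. Of 8 smooth muscle markers, 5 were detected, led by Acta2, smooth muscle actin, whereas the contractile markers Myh11 and Cnn1 and the regulator Myocd were not detected. Of 6 endothelial markers, Vwf was detected on all 8 arrays (mean log2 signal 6.89 in control and 6.94 in moR-21 samples), and Pecam1, Cdh5, Kdr, Tek and Tie1 were not detected. The description labels of all 8 arrays read AoECs, whereas the source and cell type labels name aortic smooth muscle cells. Some marker lists differed between the groups. The summed linear signal of the smooth muscle list was 10253 to 10634 in control and 13004 to 13846 in moR-21 samples, and that of 4 fibroblast markers, all detected, was 14762 to 15166 and 12562 to 13655. These sums rest mostly on the brightest genes, Acta2 (difference 0.40, called higher) in the smooth muscle list and Dcn (−0.22) in the fibroblast list. Tagln (0.20) and Lmod1 (0.05) differed in the direction of Acta2, and Lum (−0.56, called lower) and Pdgfra (−0.17) in that of Dcn. Other markers went the other way. Des differed by −0.38 (limma adjusted p = 8.60e-05) and Smtn by −0.05 in the smooth muscle list. In the fibroblast list Thy1 differed by 0.53 and was called higher. For 3 mesothelial markers, of which Msln was not detected, the sum was 864 to 877 in control and 495 to 509 in moR-21 samples. Upk3b differed by −1.24 and was called lower, and Krt19 by −0.13 (limma adjusted p = 0.115). For 6 macrophage markers the sum was 665 to 683 and 729 to 739, with Ptprc, Emr1, Itgam and Cd68 not detected. Of the 2 detected, Lyz2 differed by 0.48 and was called higher, and Csf1r by −0.01 (limma adjusted p = 0.859). The part of the marker lists in the values below was not tested. In such a bulk sample a change in the mix of cells and a change in RNA per cell cannot be told apart.

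Among the 66 genes, 2 were called lower and 3 were called higher after the mimetic. The genes called lower were Mrpl30 and Mrpl38, both of the large subunit, and those called higher were Mrps12 and Mrps33 of the small subunit and Mrpl24 of the large subunit. Over all genes with a detected probe, 4.38% were called lower and 3.41% were called higher, so the members' counts were near what the whole array gave. The split of 2 lower and 3 higher became 3 and 2 with normexp background correction, 2 and 2 with median scaling and 3 and 3 with cyclic loess. All of the changes were small, and the fold-changes of the 5 genes were between 1.31 and 1.39 at the probe used.

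Mrps12 encodes the counterpart of bacterial protein S12, which sits beside the decoding site of the small subunit. Its probe ILMN_1254734 read 9.51, 9.62 and 9.50 in control samples 1, 2 and 3, and 10.03 in each of the moR-21 samples. The groups did not overlap. The SD was 0.067 in control and 0.0020 in moR-21 samples (n = 3 each), where moR-21 3 is the mean of arrays at 10.07 and 9.99, so the smaller SD is below the gap between arrays of the same sample. The difference was 0.48 (standard error 0.048, limma adjusted p = 3.87e-06). That was a fold-change of 1.39 and the largest rise among the members with quantile normalization.

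Mrps33 encodes a small-subunit protein with no bacterial counterpart. Its brighter probe, ILMN_3163302, read 10.89, 10.80 and 10.78 in control and 11.23, 11.37 and 11.25 in moR-21 samples. The dimmer probe, ILMN_1214937, read 9.23, 9.23 and 9.45 in control and 9.79, 9.94 and 9.72 in moR-21 samples. On both probes every moR-21 sample was above every control sample. The differences were 0.46 (standard error 0.052, limma adjusted p = 1.32e-05) and 0.52 (standard error 0.069, limma adjusted p = 5.27e-05), and Mrps33 was the 1 member with more than 1 detected probe in which all of them were called.

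Mrpl24 encodes the counterpart of bacterial L24, at the exit of the tunnel of the large subunit. Its probe ILMN_2802601 read 8.63, 8.53 and 8.36 in control and 8.95, 8.95 and 8.85 in moR-21 samples. The groups did not overlap, but the control samples were more spread out (SD 0.14) than the moR-21 samples (SD 0.056), with control 3 the lowest. The difference was 0.41 (standard error 0.063, limma adjusted p = 1.82e-04), and without control 3 it was 0.34, under the fold-change cutoff. It also lost the call with normexp background correction and with median scaling, where the difference was 0.50 and 0.40.

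Mrpl30 encodes the counterpart of bacterial L30, a large-subunit protein. Its probe ILMN_1260262 read 9.63, 9.75 and 9.67 in control and 9.17, 9.29 and 9.29 in moR-21 samples. All 3 moR-21 samples were below all 3 control samples, by more than the spread within either group (SD 0.062 and 0.066, n = 3 each). The difference was −0.43 (standard error 0.052, limma adjusted p = 2.04e-05). That was a fold-change of 1.35 and the largest fall among the members with quantile normalization.

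Mrpl38 encodes a large-subunit protein with no bacterial counterpart. Its probe ILMN_2664049 read 10.60, 10.75 and 10.68 in control and 10.26, 10.27 and 10.32 in moR-21 samples. The groups did not overlap and control 2 was the highest sample. The difference was −0.39 (standard error 0.050, limma adjusted p = 3.54e-05), or 1.31-fold, and without control 2 it was −0.36, under the fold-change cutoff.

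**Figure D1:**
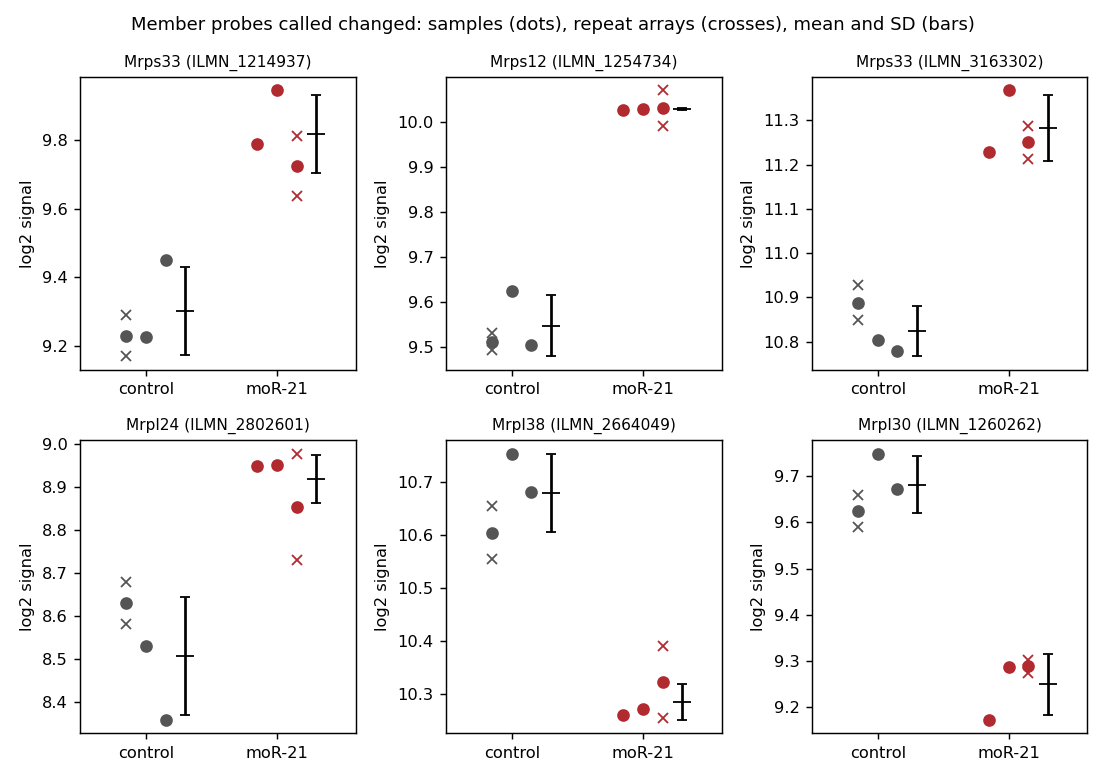
Log2 signal (vertical axes, each with its own range) of the 6 called probes of 5 member genes, by group; dots are the 3 samples of a group, crosses the A and B arrays of control 1 and moR-21 3, and bars the mean and SD. In each panel the 3 moR-21 samples lie on 1 side of all 3 control samples, and the difference of means ranges from −0.43 for Mrpl30 to 0.52 for the dimmer Mrps33 probe.

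On either side of the fold-change cutoff, which is 0.38 on the log2 scale, the values ran on without a gap. Just past it, and called, were Mrpl38 (−0.39) and Mrpl24 (0.41). Just short of it were Mrps24 (−0.37, limma adjusted p = 6.29e-05) and Mrpl22 (0.36, limma adjusted p = 2.56e-04), whose adjusted p passed. Mrps24 encodes the counterpart of bacterial S3, where the mRNA enters the small subunit. It read 12.03, 12.04 and 12.04 in control and 11.58, 11.71 and 11.72 in moR-21 samples, without overlap. Mrpl22, the counterpart of bacterial L22, lines the exit tunnel, and it read 8.20, 8.27 and 8.41 in control and 8.66, 8.71 and 8.58 in moR-21 samples, also without overlap. Mrps24 was called with cyclic loess and when moR-21 2 (−0.39) or moR-21 3 (−0.39) was left out. Mrpl22 was called when control 3 (0.42) or moR-21 3 (0.40) was left out.

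The next members on the falling side had differences of −0.29 (Mrpl3), −0.21 (Mrpl35), −0.20 (Mrps9) and −0.19 (Mrps7). Mrpl3 and Mrpl35 are large-subunit proteins, and Mrps9 and Mrps7 belong to the head of the small subunit. Mrpl3 read 9.37, 9.44 and 9.31 in control and 9.09, 9.11 and 9.06 in moR-21 samples, and its dimmer probe differed by −0.22. Mrps7 read 9.75, 9.86 and 9.83 in control and 9.50, 9.70 and 9.66 in moR-21 samples, and its dimmer probe differed by −0.26. In all 4 genes the groups did not overlap, and the limma adjusted p was between 3.62e-04 for Mrpl3 and 0.0173 for Mrps7. With normexp background correction the dim Mrpl35 probe differed by −0.45 and was called.

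The next members on the rising side were all of the large subunit, with differences of 0.30 (Mrpl4), 0.29 (Mrpl14), 0.28 (Mrpl48) and 0.24 (Mrpl33). Mrpl4 and Mrpl14 are counterparts of bacterial L4, which reaches into the exit tunnel, and of L14, which faces the small subunit. Mrpl48 has no bacterial counterpart, and its 3 probes differed by 0.28, 0.28 and 0.31. Mrpl14 was the most variable of the 4 genes, at 9.55, 9.77 and 9.66 in control and 9.85, 10.15 and 9.86 in moR-21 samples, and without moR-21 2 its difference was 0.19 (limma adjusted p = 0.0327). With all samples its limma adjusted p was 0.0086, that of Mrpl4 was 4.77e-04, that of Mrpl48 6.63e-04 and that of Mrpl33 0.00291. The groups did not overlap in any of these genes.

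At a limma adjusted p under 0.05 with no fold-change cutoff, 8 of the 66 genes (12.1%) were lower and 16 (24.2%) were higher, and 42 did not pass. Over all genes with a detected probe, 17.3% passed lower and 18.8% passed higher. The members' counts were 6 lower and 10 higher with normexp background correction, where 15.2% of members and 17.0% of all genes were higher, so that the order of these shares turned round. They were 7 and 12 with median scaling (18.2% of members and 13.6% of all genes higher) and 10 and 15 with cyclic loess (22.7% and 17.8%). Beyond the genes named so far, Mrps28 passed on the lower side (−0.16), and on the higher side Mrpl28 and Mrpl55 (0.22 each), Mrps6 (0.22), Mrpl27 and Mrpl54 (0.20 each), Mrps16 (0.20), Mrpl43 (0.16) and Mrpl12 (0.14) passed. Mrpl12 encodes the factor-binding stalk protein of the large subunit. The other stalk genes, Mrpl10 (−0.06, limma adjusted p = 0.349) and Mrpl11 (0.00, limma adjusted p = 0.958), did not pass. All 3 moR-21 samples were below all 3 control samples in 12 members (18.2%) and above them in 20 (30.3%), against 21.9% and 24.4% of all genes, and the groups overlapped in the other 34.

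As a list, the members moved in both directions by similar amounts. Of the 66 differences 36 were above 0 and 30 below, with a median of 0.02 and quartiles of −0.10 and 0.14. Over all 8727 genes the median was 0.01 and the quartiles were −0.09 and 0.10. Of the members 92.4% were within the fold-change cutoff, against 92.2% of all genes. The standard error of a member's difference was between 0.044 and 0.094, with a median of 0.052. The median difference was between 0.01 and 0.05 under all 17 alternatives in which it was recomputed.

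**Figure D2:**
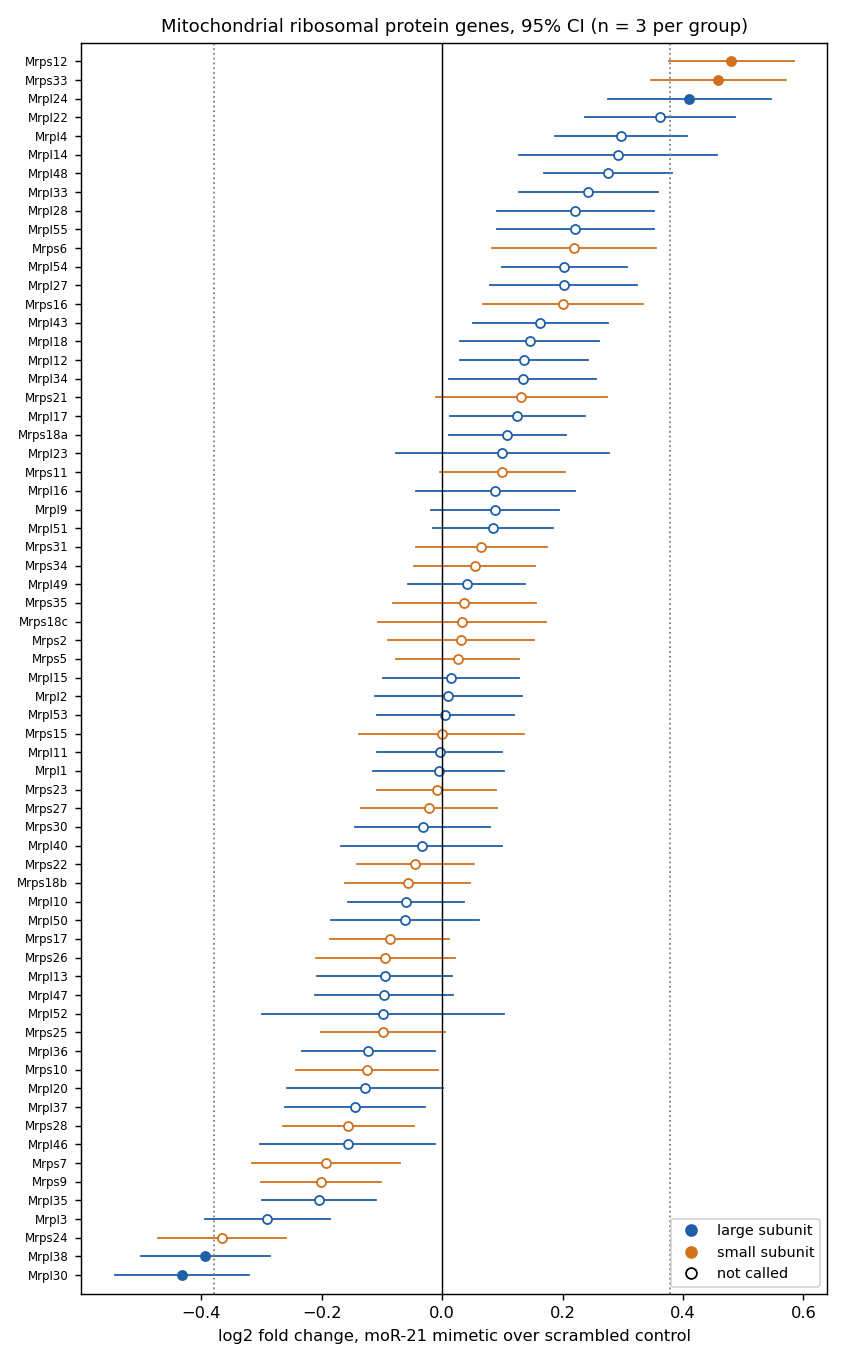
Log2 fold change of each of the 66 member genes (horizontal axis, moR-21 mimetic over scrambled control, n = 3 samples per group) with its 95% confidence interval, ordered by size and colored by subunit; filled points are called genes and dotted lines mark the fold-change cutoff. The values run from −0.43 (Mrpl30) to 0.48 (Mrps12), and 61 open points lie between the called genes.

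The large subunit had 24 genes above 0 and 17 below, with a median difference of 0.04. At a limma adjusted p under 0.05, 4 of its genes were lower (9.8%) and 12 higher (29.3%). The small subunit had 12 above and 13 below, and 4 lower and 4 higher (16% each) at that threshold. Its median was −0.001. Over all genes with a detected probe the shares were 17.3% lower and 18.8% higher. The difference between the subunits was not tested.

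Grouped by ancestry, the 24 measured genes with no bacterial counterpart had a median difference of −0.02, and the 42 with one had a median of 0.03. At a limma adjusted p under 0.05, 1 of the 24 was lower (4.2%) and 4 were higher (16.7%). Of the 42, 7 were lower (16.7%) and 12 higher (28.6%), and of all genes 17.3% were lower and 18.8% higher. Within 0.1 of 0 lay 66.7% of the first group and 38.1% of the second, while 51.0% of all genes did. In the small subunit 9 of the 10 genes without a bacterial counterpart, among them Mrps22, Mrps23, Mrps27 and Mrps35, had differences between −0.10 and 0.07, and the other was Mrps33. This contrast was not tested.

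The level of the members in single samples was read as the median over the 66 genes of each gene's signal minus its mean over the 6 samples. It was −0.04, 0.01 and −0.01 in control 1, 2 and 3, and −0.02, 0.05 and 0.01 in moR-21 1, 2 and 3. The groups overlapped, since moR-21 1 lay below control 2 and control 3. In control 1, 45 of the 66 genes were below their own mean, and in moR-21 2, 45 were above it.

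**Figure D3:**
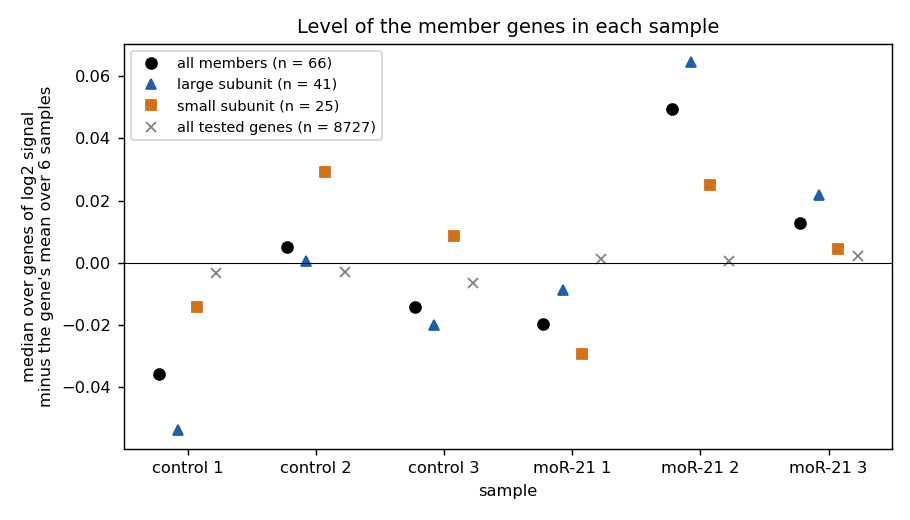
Median over genes of the log2 signal minus the gene's mean over 6 samples (vertical axis), for each sample (horizontal axis) and for all 66 members, the 41 large-subunit and 25 small-subunit genes and all 8727 genes; no error is drawn. The medians of the 66 members overlap between the groups and lie within 0.05 of 0, and the medians of all genes lie within 0.01 of 0.

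The repeat arrays showed how far a member's signal moved with no change of sample. Between arrays A and B the median absolute difference over the 66 genes was 0.057 in control 1 and 0.074 in moR-21 3. The largest were 0.24 for Mrpl52 in control 1 and 0.31 for Mrpl20 in moR-21 3, so that 0 genes passed the fold-change cutoff between arrays of the same sample. Mrpl52 was also the most variable member among control samples, at 9.08, 9.57 and 9.49, against 9.24, 9.31 and 9.29 in moR-21 samples, which lay between them.

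More than 1 detected probe was present for 17 members, with 39 probes in all. In 14 of them all probes differed in the same direction, and in Mrpl13, Mrps25 and Mrps26 they did not, with no probe of these 3 genes past a limma adjusted p under 0.05. The probes of a gene differed by at most 0.17, in Mrps31. In Mrpl49, Mrps11 and Mrps31 some probes passed that threshold and the brightest did not, with the largest probe values 0.18, 0.18 and 0.23. An additional gene, listed on the array as D10Ertd322e with Mrpl42 among its synonyms, fell outside the choice of members. It was higher by 0.43 (standard error 0.055, limma adjusted p = 3.58e-05) and was called.

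Other genes of mitochondrial translation were read from lists of genes with known roles. Other proteins of the mitochondrial ribosome without an Mrp symbol gave 6 tested genes, of which 2 passed a limma adjusted p under 0.05, both higher, and neither was called. These were Aurkaip1 (0.30, adjusted p = 0.00132) and Dap3 (0.16, adjusted p = 0.0133), a GTP-binding protein of the small subunit. Of 9 translation factors 2 passed, both higher and not called. These were Tsfm, the exchange factor of the elongation factor Tu, at 0.22, and Gfm2, a factor that recycles ribosomes, at 0.18. The groups overlapped in Tsfm and not in Gfm2. The shares that passed higher were 33.3% of the first list and 22.2% of the second, against 18.8% of all genes. On the lower side they were 0% and 0%, against 17.3%.

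Of 19 genes of ribosome assembly and rRNA modification, 1 was called. Nsun4, an rRNA methyltransferase that acts in assembly of the ribosome, read 9.35, 9.32 and 9.20 in control and 8.62, 8.52 and 8.53 in moR-21 samples. The groups did not overlap, and its difference of −0.73 (standard error 0.053, limma adjusted p = 1.77e-07) was larger than that of any member. It was called under all 20 alternatives. Of the other genes on this list, Lrpprc (−0.16) and Rnmtl1 (−0.13) were lower and Mterfd2 (0.29) was higher at a limma adjusted p under 0.05. With Nsun4, 15.8% of the list was lower and 5.3% higher, against 17.3% and 18.8% of all genes.

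Of 14 mitochondrial aminoacyl-tRNA synthetases and related enzymes, which charge the tRNAs, 11 were below 0 with a list median of −0.06. Qrsl1 (−0.29), Fars2 (−0.22) and Lars2 (−0.14) were lower and Vars2 (0.25) and Ears2 (0.15) higher at a limma adjusted p under 0.05, and none was called. At the adjusted threshold 21.4% of the list was lower and 14.3% higher, against 17.3% and 18.8% of all genes. Of all 8727 genes, 4208 were below 0. At an unadjusted limma p under 0.05 there were 4 lower and 3 higher, and the share of all genes was not counted there. Among 10 genes of mitochondrial transcription and its regulators, Tfb2m, a transcription factor of mitochondrial DNA, was called. It read 8.65, 8.60 and 8.62 in control and 8.31, 8.18 and 8.21 in moR-21 samples, a difference of −0.39 (standard error 0.049, limma adjusted p = 3.20e-05). Tfb2m lost the call when control 1 (−0.38), moR-21 2 (−0.36) or moR-21 3 (−0.38) was left out. It also lost the call with array B alone and at a fold-change over 1.5. Nrf1, a nuclear regulator of many mitochondrial protein genes, differed by −0.35 (limma adjusted p = 3.90e-05) without being called. Gabpa, another such regulator, differed by 0.03 (limma adjusted p = 0.663). Its signal was dim, with a mean log2 of 6.81 in control and 6.84 in moR-21 samples and detection on at most 5 arrays, so a change could have been missed. Polrmt was lower (−0.19) and Esrra (0.21) and Mterf (0.13) were higher at a limma adjusted p under 0.05. With Tfb2m and Nrf1, 30% of this list was lower and 20% higher, against 17.3% and 18.8% of all genes.

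The cytosolic ribosomal protein genes were taken by symbol, which also took in like-named genes such as Rpl7l1, Rpl22l1 and Rps27l. This list gave 54 tested genes with a median difference of 0.02, the same as that of the members to 2 decimals. Of these, 3 were called higher, namely Rpl7l1 (0.57), Rpl7a (0.51) and Rps3 (0.38), and 0 were called lower. Over all genes 3.41% were called higher and 4.38% lower. At an unadjusted limma p under 0.05 there were 7 lower and 11 higher, and 12 and 20 of the 66 members. The share of all genes was not counted at that threshold. Of the cytosolic genes 14.8% passed a limma adjusted p under 0.05 on the higher side and 7.41% on the lower side. The shares were 24.2% and 12.1% of the members and 18.8% and 17.3% of all genes. These contrasts were not tested. Near-identical copies are common among cytosolic ribosomal protein genes, so their probe values are uncertain.

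**Figure D4:**
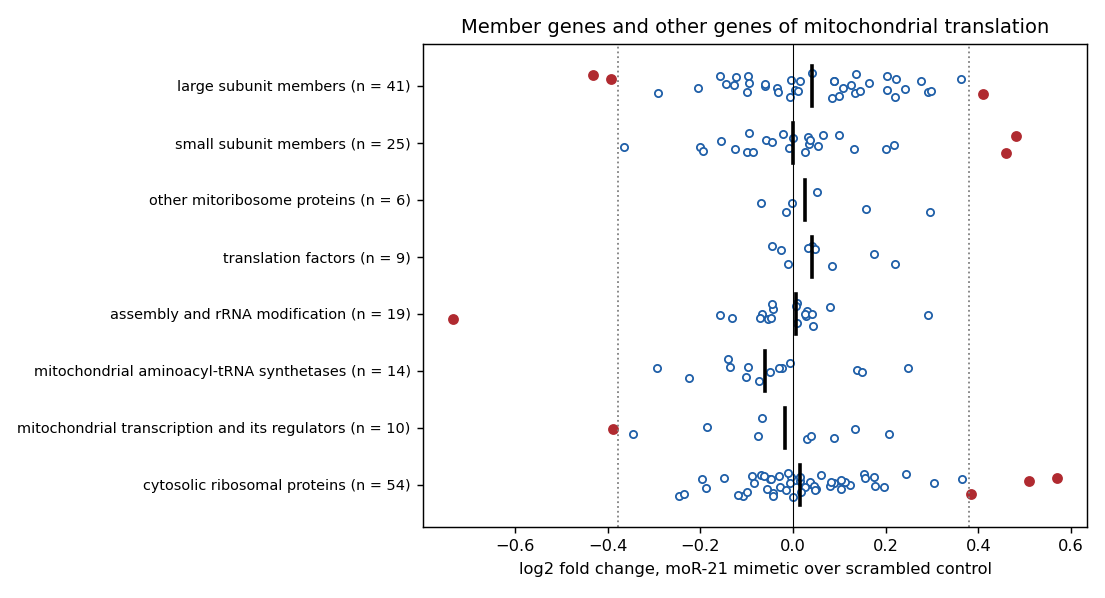
Log2 fold change (horizontal axis, moR-21 mimetic over scrambled control) of the members by subunit and of 6 lists of related genes; points are genes, filled where called, short vertical bars are list medians and dotted lines mark the fold-change cutoff. All list medians lie between −0.06 and 0.04, and Nsun4 (−0.73) is farthest from 0.

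The promoters of the members were read from the RefSeq table of mouse promoters (build GRCm38.p6), 250 bases before to 50 after each gene's start, which held 63 of the 72 genes. In all, 3 sets of letters were searched on both strands, CCGGAAG of the ETS family to which GABPA belongs, GCATGCGC of the NRF1 site and AAGATGGCG of the YY1 site. Stretches before the start are shown for 4 called members in the table and for Mrpl22, which holds both of the first sets, with matches in capitals, 5′ to 3′ on the strand of the gene. Mrps12 lies at chr7:28741822-28741956 (minus strand), Mrps33 at chr6:39810937-39811056 (minus), Mrpl24 at chr3:87919424-87919543 (plus), Mrpl30 at chr1:37890450-37890476 (plus) and Mrpl22 at chr11:58171544-58171663 (plus). Mrpl30 is shorter because its upstream neighbor begins close by.
Mrps12: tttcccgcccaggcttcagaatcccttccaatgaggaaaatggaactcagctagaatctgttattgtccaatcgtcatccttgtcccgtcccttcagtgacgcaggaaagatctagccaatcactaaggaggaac
Mrps33: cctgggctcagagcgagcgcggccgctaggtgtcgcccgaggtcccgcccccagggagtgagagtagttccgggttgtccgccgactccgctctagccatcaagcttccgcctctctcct
Mrpl24: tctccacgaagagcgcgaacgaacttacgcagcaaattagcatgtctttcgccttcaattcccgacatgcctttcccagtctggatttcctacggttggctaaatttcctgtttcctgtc
Mrpl30: aaacctttcccggaaccaaagaaccgt
Mrpl22: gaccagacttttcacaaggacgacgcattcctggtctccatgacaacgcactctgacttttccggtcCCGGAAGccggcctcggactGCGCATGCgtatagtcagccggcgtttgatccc
In Mrps12 and Mrps33 the ETS letters lie after the start and are not shown, and in Mrpl24 and Mrpl30 none of the searched letters were found in the window.

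CCGGAAG was found in 24 of the 63 member promoters (38.1%) and in 9.93% of all 27025 genes in the table. GCATGCGC was found in 8 (12.7%, against 3.05%) and AAGATGGCG in 7 (11.1%, against 1.64%). The genes of the table were taken whether or not they were detected here, whereas 66 of the 72 members were detected. The shares therefore come from unlike sets. Among tested members the 23 with CCGGAAG had a median difference of 0.12, with 16 above 0, and the 35 without it had a median of −0.01. The 7 with AAGATGGCG, among them Mrps24 and Mrpl35, had a median of −0.12, with 2 above 0, against 0.03 in the 51 without it. The 6 tested members with GCATGCGC, among them Mrpl22 and Mrpl33, had a median of 0.11. These contrasts were not tested, and a match is not evidence that a factor binds.

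Many members share their start region with a gene on the other strand. Of the 63 promoters 24 (38.1%) had the start of such a gene within 1000 bases upstream, against 12.3% of all genes in the table, detected here or not. In 15 of these both genes were tested, and the differences had the same sign in 9 and opposite signs in 6. Mrps12 starts 147 bases from Sars2, the mitochondrial seryl-tRNA synthetase. Sars2 differed by −0.03 (95% confidence interval −0.12 to 0.06, limma adjusted p = 0.657) where Mrps12 rose by 0.48. The Sars2 probe was dim, however, with a mean log2 signal of 6.93 in control and 6.90 in moR-21 samples. Fold-changes are understated at such a level, so a change of Sars2 could have been missed. Mrpl14 (0.29) and its neighbor Tmem63b (−0.23) also had opposite signs. Mrpl46 and Mrps11, which start 42 bases apart and are counted from both sides, differed by −0.16 and 0.10, with a limma adjusted p of 0.0927 and 0.133. Mitd1, which starts 66 bases from Mrpl30, was not among the tested genes.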

How the data were processed

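Illumina BeadChips measured RNA of mouse aortic smooth muscle cells in 3 control and 3 moR-21 samples on 8 arrays. The authors deposited the non-normalized intensity of each probe and, beside it, a detection p-value. No background correction is stated for these values, and the array design is named in different ways in the sources. Quantile normalization was run over all 8 arrays, log2 values were taken, and arrays of the same sample were averaged. The groups were compared with lmFit and eBayes of limma, with no covariate, over the 11651 probes that passed a detection p-value of 0.01 on 1 array or more, with Benjamini-Hochberg adjustment over all of them. Calls required an adjusted p under 0.002 together with a fold-change over 1.3. The script was tested on simulated data.

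The rule for the members reads gene symbols alone, but this gene family, its members and the gene lists were chosen with earlier results of these data known. Genes named are the called members, the 5 largest falls and 5 largest rises among other members with an adjusted p under 0.05, members whose probes disagree, called genes of the lists and the neighbors of called members. Other genes were named after their values were seen. Gene symbols are those of the array. Alternatives were normexp background correction (offset 16), median scaling, cyclic loess, all or no detection filter, array A or B alone, all arrays with duplicateCorrelation, a replicate block, eBayes with trend and robust, the mean of a gene's probes, each sample left out and other cutoffs. The software was R 4.3.3, limma 3.58.1, Python 3.11.15, numpy 2.4.6, pandas 2.3.3 and matplotlib 3.10.9.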

Additional observations from a re-analysis of the deposited data

How the results depend on the processing

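Across 20 alternatives, none of the 15 members named by rule changed direction, and 271 of 300 values stayed on the same side of the cutoffs. Several alternatives left the difference of a gene such as Mrpl14 as it was, among them other cutoffs, the detection filters and the replicate block. The 15 members were also chosen for their large differences, so their unchanged direction says little about how far the processing matters. The number of members called lower, 2 at the cutoffs used, was 1 with array B alone and 1 with all 8 arrays tied by duplicateCorrelation, where Mrpl38 was lost. It was between 1 and 3 when a sample was left out, with 1 without control 2, and the number called higher was then between 3 and 4. With an adjusted p under 0.05 and no fold-change cutoff, 8 were lower and 16 higher, and at a fold-change over 1.5 the counts were 0 and 0. For all genes 680 calls became 3151 and 217 at these cutoffs. Mrpl24 lost its call with array B alone (0.35) and with duplicateCorrelation (0.37). Mrpl30, Mrps12 and Mrps33 lost theirs only at a fold-change over 1.5. The causes were not tested, apart from the cutoffs' own construction.

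Same-numbered samples were not treated as paired in the main fit. Their deviations correlated at 0.19, 0.04 and 0.06, and those of samples with different numbers at −0.13 to 0.07. Such correlations do not settle whether the samples were paired. With a replicate block 2 members were called lower and 3 higher, the median difference was 0.02 and 682 genes were called. The block changed single p-values, with the limma adjusted p of Mrpl14 going from 0.0086 to 1.50e-04 and that of Mrpl24 from 1.82e-04 to 3.54e-06. With 3 samples per group and 6 genes below detection, small changes of dim members could have been missed.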
